A study of Macaca mulatta with 13 samples.

Results

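The genes described here are those of basophils and of the high-affinity receptor for IgE: FCER1A, CPA3, MS4A2, HDC, GATA2, CCR3, IL3RA and ENPP3. They were followed on microarrays of blood mononuclear cells from young rhesus macaques (Macaca mulatta) that had grown up under different rearing conditions. The members were all probe sets that the platform annotation pairs with exactly 1 of these 8 symbols. This gave 10 probe sets for 7 genes, of 52707 probe sets on the array other than controls. GATA2 had 3 probe sets and ENPP3 had 2. FCER1A, CPA3, MS4A2, HDC and CCR3 had 1 each. IL3RA, the alpha chain of the interleukin-3 receptor, was paired with 0 probe sets and was not analysed here.

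The study asked whether leukocyte gene expression differs with early rearing. It gave 4 surrogate-peer reared animals, 4 peer reared animals and 5 maternally reared animals, all 4 months old. Each animal gave 1 sample of peripheral blood mononuclear cells (PBMC, the lymphocytes, monocytes and other cells isolated together from blood), and the total RNA of each sample was put on 1 Affymetrix rhesus genome array. The labels name no genetic change and no drug treatment, and give neither sex nor a batch. The replicates are separate arrays, and array numbers below only name the animals within a group.

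Basophils are rare blood granulocytes that are often recovered with mononuclear cells. They carry the tetrameric IgE receptor, made of an IgE-binding alpha chain (FCER1A), a signal-amplifying beta chain (MS4A2) and a pair of gamma chains (FCER1G). When an antigen cross-links IgE on this receptor, the kinases LYN and SYK start a signal that ends in the release of histamine and lipid mediators from the cell. FCER1A is also found on conventional dendritic cells in human blood, CCR3 on eosinophils, and GATA2 in mast cells and blood progenitors, so that several of the members are not particular to basophils. In a bulk sample, fewer cells of a type and less RNA per cell cannot be told apart.

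Values are log2 expression as the authors deposited them, made with RMA (robust multi-array average), a method that corrects background, normalizes arrays and sums the probes of a probe set. A difference of 1 on this scale is a doubling. Tests were limited to the 26352 probe sets whose mean of all 13 arrays exceeded 6.04, the median of such means. Of the members, 6 probe sets of 4 genes (FCER1A, CPA3, CCR3 and the 3 of GATA2) passed. MS4A2, HDC and both ENPP3 probe sets did not, and their values lay below 6.04 on every array. Measured signal for the basophil label thus rests on FCER1A, CPA3, GATA2 and CCR3. FCER1A and CPA3 also lay above the filter by their maternal means alone, 7.13 and 6.37. The genes were chosen with their differences from maternal animals already known, so those differences are given as a description, with standard errors and 95% intervals of the fit and with no test.

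Among the chains of the IgE receptor, FCER1A, which binds the antibody, had the largest difference of the members. On probe set MmuSTS.4370.1.S1_at it measured 8.38, 9.17, 8.81 and 10.18 in the surrogate-peer animals. It measured 8.39, 8.75, 9.96 and 8.67 in the peer animals, against 7.48, 7.89, 8.19, 5.55 and 6.53 in the maternal animals. All 8 non-maternal values lay above all 5 maternal values, which was true of 1.89% of the tested probe sets. The lowest non-maternal value was that of surrogate-peer array 1 and the highest maternal value that of maternal array 3. Group means were 9.13 ± 0.77 in surrogate-peer (SD, n = 4), 8.94 ± 0.70 in peer (SD, n = 4) and 7.13 ± 1.08 in maternal animals (SD, n = 5). The mean of the surrogate-peer and peer groups lay 1.91 ± 0.45 (SE) above the maternal mean, with an interval of 0.93 to 2.89, which is 3.76-fold. The difference was 2.01 ± 0.53 for surrogate-peer against maternal animals and 1.82 ± 0.53 for peer against maternal animals.

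The spread among maternal animals was wide. Maternal array 4, with the lowest FCER1A value, also had the highest 3' to 5' signal ratio of the control transcripts, 2.23 on the log2 scale, a ratio that is high where RNA or its copies are short. Without this array the FCER1A difference was 1.52. Markers of conventional dendritic cells, another FCER1A-bearing type, were all measured (11 of 11), and 0 of the 8 tested passed the threshold between non-maternal and maternal animals. Their mean level ran from 7.07 to 7.29 in non-maternal arrays and from 6.99 to 7.52 in maternal arrays, and their part in the FCER1A values was not tested.

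MS4A2, the beta chain, was dim on its probe set MmugDNA.39038.1.S1_at. Its values were 5.10, 5.97, 5.21 and 5.80 in surrogate-peer animals and 5.42, 5.47, 5.39 and 5.08 in peer animals, against 4.97, 5.10, 4.92, 4.92 and 4.90 in maternal animals. The maternal values lay close together, and 6 of the 8 non-maternal values lay above all of them. The non-maternal mean was 0.47 ± 0.14 (SE) higher, or 1.38-fold, with an interval of 0.17 to 0.76. Surrogate-peer animals gave 0.56 ± 0.16 and peer animals 0.38 ± 0.16 in the same comparison. The gamma chain gene FCER1G had no probe set with a single symbol and was not analysed here.

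**Figure D1:**
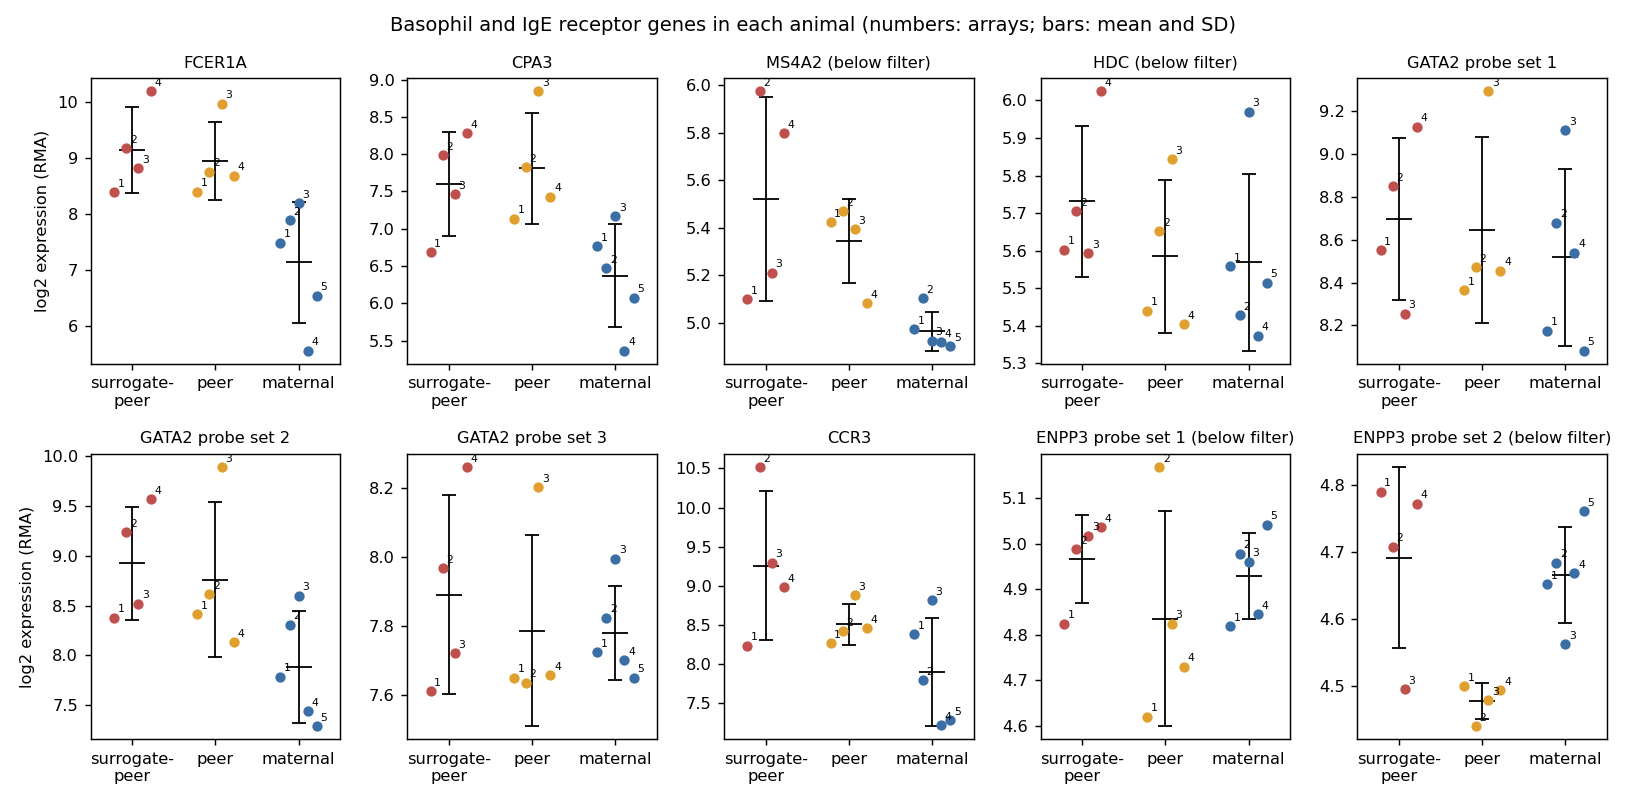
Log2 expression of each member probe set in each animal, in surrogate-peer, peer and maternal animals from left to right; points are arrays with their number, and the bars show the group mean and SD. The 8 non-maternal FCER1A points sit at 8.38 and higher, above the highest maternal point at 8.19. Every other member probe set overlaps between non-maternal and maternal animals. GATA2 probe sets 1 to 3 are numbered by falling mean level, and the vertical axes differ between panels.

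The members concerned with granule contents are CPA3 and HDC. CPA3, a carboxypeptidase stored in the granules of mast cells and basophils, measured 6.69, 7.99, 7.46 and 8.28 in surrogate-peer animals on probe set MmugDNA.34672.1.S1_at. It measured 7.14, 7.83, 8.84 and 7.43 in peer animals, against 6.76, 6.47, 7.17, 5.37 and 6.07 in maternal animals. Maternal array 4 was again the lowest, peer array 3 was the highest, and 6 of 8 non-maternal values lay above all maternal values. Group means were 7.60 ± 0.70 in surrogate-peer (SD, n = 4), 7.81 ± 0.74 in peer (SD, n = 4) and 6.37 ± 0.69 in maternal animals (SD, n = 5). The non-maternal mean was 1.34 ± 0.36 (SE) higher, with an interval of 0.55 to 2.12, a 2.53-fold difference. By group it was 1.24 ± 0.43 for surrogate-peer and 1.44 ± 0.43 for peer animals.

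HDC, the enzyme that makes histamine from histidine, overlapped between all groups. Its probe set MmuSTS.11.1.S1_at ran from 5.59 to 6.02 in surrogate-peer animals and from 5.40 to 5.84 in peer animals, against 5.37 to 5.97 in maternal animals. The non-maternal mean was 0.09 ± 0.12 (SE) higher, with an interval of -0.16 to 0.34. The deposited values carry no detection call, so whether HDC lay above background is not known.

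GATA2, a transcription factor needed for basophil and mast cell development, gave differences of unequal size on its 3 probe sets. Probe set 2, MmuSTS.4819.1.S1_at, measured 8.38, 9.24, 8.52 and 9.57 in surrogate-peer animals and 8.41, 8.61, 9.89 and 8.13 in peer animals, against 7.78, 8.31, 8.60, 7.44 and 7.29 in maternal animals. Here 4 of 8 non-maternal values lay above all maternal values, and maternal arrays 4 and 5 were the lowest. The non-maternal mean was 0.96 ± 0.33 (SE) higher, or 1.95-fold, with an interval of 0.25 to 1.67. The difference was 1.04 ± 0.38 for surrogate-peer and 0.88 ± 0.38 for peer animals.

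The other GATA2 probe sets share a target identifier with each other. Probe set 1, MmugDNA.21422.1.S1_s_at, ran from 8.25 to 9.13 in surrogate-peer and from 8.37 to 9.29 in peer animals, against 8.08 to 9.11 in maternal animals. Its difference was 0.15 ± 0.21 (SE), with an interval of -0.31 to 0.62. Probe set 3, MmugDNA.21422.1.S1_at, gave 0.06 ± 0.13 (SE), with an interval of -0.22 to 0.34. The groups overlapped on both. Intervals of all 3 probe sets overlapped one another, but they come from the same arrays, so this does not show that the differences agree. The differences of the 3 probe sets were not tested against one another. Which of the probe sets follows the GATA2 transcript best was not tested.

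Of the surface proteins, CCR3, the receptor for eotaxins that draws eosinophils and basophils into tissue, had its highest value in a surrogate-peer animal. Its probe set MmuSTS.1419.1.S1_at measured 8.23, 10.52, 9.29 and 8.98 in surrogate-peer animals and 8.27, 8.42, 8.88 and 8.46 in peer animals, against 8.38, 7.80, 8.82, 7.22 and 7.28 in maternal animals. That was surrogate-peer array 2, and 4 of 8 non-maternal values lay above all maternal values. Group means were 9.26 ± 0.95 in surrogate-peer (SD, n = 4), 8.51 ± 0.26 in peer (SD, n = 4) and 7.90 ± 0.70 in maternal animals (SD, n = 5). The difference from maternal animals was 0.98 ± 0.36 (SE) for the non-maternal mean, 1.36 ± 0.42 for surrogate-peer and 0.61 ± 0.42 for peer animals. Without surrogate-peer array 2 the surrogate-peer difference was 0.94.

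Eosinophils, the other blood cells known for CCR3, were followed through 10 marker genes, of which 4 were measured and 1, ALOX15, was tested. ALOX15 encodes arachidonate 15-lipoxygenase. Its difference was 0.91 ± 0.39 (SE), with an adjusted p of 0.142 in limma. The mean level of the 4 ran from 5.47 to 6.30 in non-maternal and from 5.48 to 5.91 in maternal arrays, with the highest value on surrogate-peer array 2. That peak rested on ALOX15, which measured 9.955 there and no more than 8.487 on any other array. RNASE2 and PRG3, which encode eosinophil granule proteins, lay below 6.04 on all arrays, at no more than 4.70 and 5.30. Both were highest on peer array 4, and the remaining marker, IL5RA, was highest on maternal array 3. The part of eosinophils in the CCR3 values was not tested.

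ENPP3, the ectoenzyme CD203c that is brought to the basophil surface on activation, was dim on both of its probe sets. The first, MmugDNA.20194.1.S1_at, ran from 4.83 to 5.04 in surrogate-peer and from 4.62 to 5.17 in peer animals, against 4.82 to 5.04 in maternal animals, a non-maternal difference of -0.03 ± 0.09 (SE). The second, MmugDNA.35500.1.S1_at, measured 4.79, 4.71, 4.50 and 4.77 in surrogate-peer and 4.50, 4.44, 4.48 and 4.49 in peer animals, against 4.65, 4.68, 4.56, 4.67 and 4.76 in maternal animals. The peer values ran from 4.44 to 4.50 and the maternal values from 4.56 to 4.76, and the surrogate-peer values overlapped the maternal ones. How many of all probe sets separate peer from maternal animals was not counted. The non-maternal difference was -0.08 ± 0.06 (SE), made of -0.19 ± 0.07 in peer and 0.03 ± 0.07 in surrogate-peer animals.

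Counted over the members, 8 of the 10 probe sets were higher in non-maternal than in maternal animals, with a median difference of 0.31. Over all tested probe sets the median was 0.01 and 51.0% were higher. The 10 include probe sets below the filter, and the tested probe sets do not. In a fit without the filter the median over all probe sets was -0.03. By limma with Benjamini-Hochberg adjustment at a threshold of 0.05, 2 of the 6 tested members were past the threshold, FCER1A and CPA3, both higher, beside 6.64% of all tested probe sets called higher and 1.35% called lower. Of all calls 83.1% were higher as deposited, 56.7% after centring each array and 66.4% after quantile normalization. Since these values chose the genes, nothing is read from the members' count. For peer against maternal animals 8 of 10 members were higher, with a median of 0.25 and 0 of 6 past the threshold, beside 0.353% of all tested probe sets, and 24.9% of them at an unadjusted p under 0.05. For surrogate-peer against maternal animals 10 of 10 were higher, with a median of 0.37 and 0 of 6 past the threshold, beside 0% of all tested probe sets, and 20.3% of them at an unadjusted p under 0.05. These comparisons share their maternal arrays. Over all tested probe sets 50.6% were higher for peer against maternal animals and 52.2% for surrogate-peer against maternal animals. The 10 higher for surrogate-peer animals include the ENPP3 probe sets, with differences of 0.04 and 0.03. The count of 2 was 0 when maternal arrays 2 and 5, which had the highest mean levels of monocyte markers (11.53 and 11.19), were both left out, and 0 without surrogate-peer array 3, without any one of the 4 peer arrays, without maternal array 4 or without maternal array 5. It was 1 without surrogate-peer array 2, surrogate-peer array 4 or maternal array 2. Calls over all tested probe sets also fell in each of these fits. They were fewest without maternal array 4, without maternal arrays 2 and 5 together and without maternal array 5. The lower member counts thus do not show a change particular to the members.

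The difference between surrogate-peer and peer animals, in which no maternal value enters, was tested. Its standard errors, intervals and p-values still use the spread within all 3 groups, and the filter uses all 13 arrays. No member passed the threshold: 0 of 6 tested, beside 0% of all tested probe sets. At an unadjusted p under 0.05 limma called 0 of the 6, and 483 of the 26352 tested probe sets, or 1.83%. FCER1A was 0.19 ± 0.56 (SE) higher in surrogate-peer animals, with an interval of -1.03 to 1.41, and higher than every peer value in 1 of 4 animals (limma adjusted p = 0.9999). CPA3 was 0.20 lower, a difference of -0.20 ± 0.45 with an interval of -1.18 to 0.77 (limma adjusted p = 0.9999). As ratios of surrogate-peer to peer, these intervals run from 0.491 to 2.65 for FCER1A and from 0.441 to 1.71 for CPA3.

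CCR3 had the largest difference between these groups, 0.75 ± 0.44 (SE) higher in surrogate-peer animals, with an interval of -0.21 to 1.71. With 3 of 4 surrogate-peer animals above all peer animals, it had an unadjusted p of 0.114 and an adjusted p of 0.9999 in limma, and the difference was 0.33 without surrogate-peer array 2. The 3 GATA2 probe sets differed by 0.05, 0.16 and 0.10, with intervals from -0.71 to 1.04 at the widest. Among the probe sets below the filter, MS4A2 differed by 0.18, HDC by 0.15 and the first ENPP3 probe set by 0.13. The second ENPP3 probe set differed by 0.21 ± 0.07 (SE), with an interval of 0.06 to 0.37. Its unadjusted p was 0.0116 and its adjusted p 0.9999 in a limma fit of all 52707 probe sets. Over all 10 member probe sets 9 were higher in surrogate-peer animals, with a median difference of 0.16, beside a median of 0.00 and 50.2% over all tested probe sets. The 10 include probe sets below the filter and more than 1 of GATA2 and ENPP3, so the 2 sets are not alike.

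**Figure D2:**
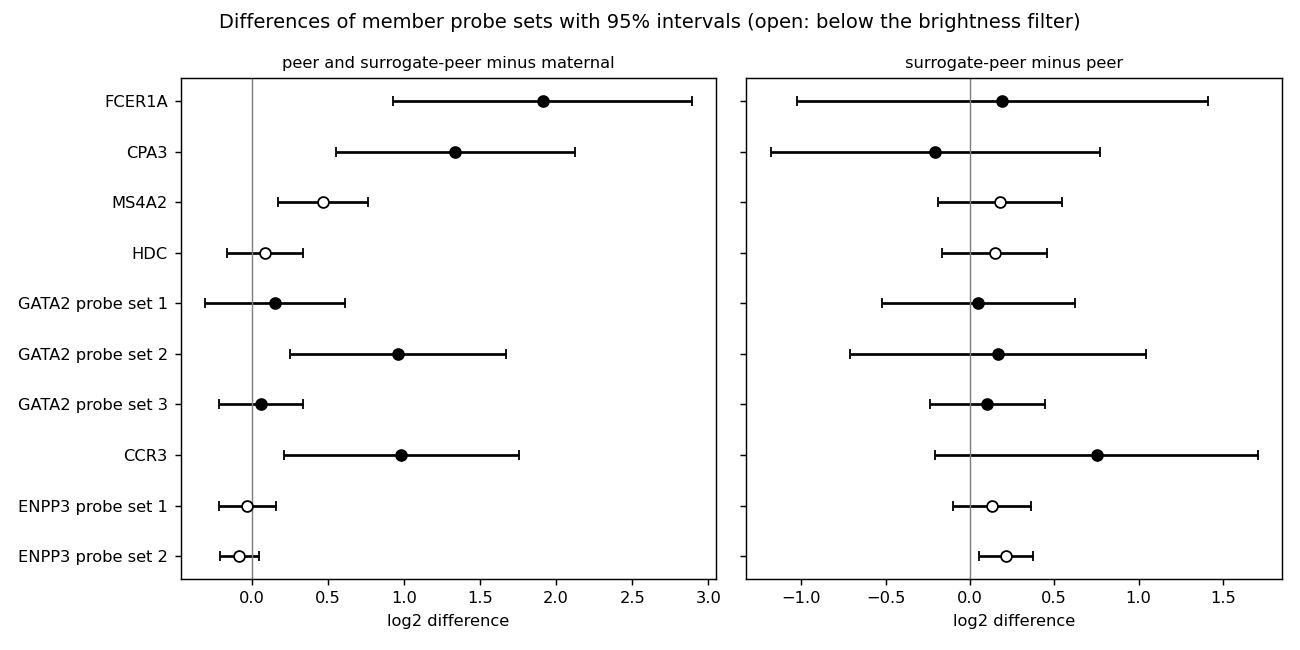
Log2 difference of each member probe set with its 95% interval, for the peer and surrogate-peer mean minus maternal on the left and for surrogate-peer minus peer on the right; open points lay below the brightness filter. On the left, FCER1A at 1.91 and CPA3 at 1.34 lie furthest from 0, and on the right the intervals of all tested members include 0.

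The members also varied between animals of the same group. The SD within groups was 0.888 for FCER1A, higher than that of 99.0% of the tested probe sets, whose median was 0.203. It was 0.709 for CPA3, 0.696 for CCR3 and 0.637 for GATA2 probe set 2, each above that of at least 96.6% of the tested probe sets. HDC, at 0.217, lay near the median of the tested probe sets. MS4A2 (0.260) lay a little above it, and the ENPP3 probe sets (0.152 and 0.0881) lay below it.

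To see whether the members rose and fell together from animal to animal, each group's mean was taken off and the deviations were correlated over the 13 arrays. These correlations are descriptions with no test, over arrays that share their normalization. FCER1A and CPA3 followed each other with r = 0.92 (Spearman's rho 0.94), and r was 0.89 without maternal arrays 4 and 3, the farthest from the FCER1A median. FCER1A correlated with GATA2 probe set 2 at r = 0.86 (rho 0.87, and 0.91 without the same arrays). The arrays high for all of these within their groups were surrogate-peer array 4, peer array 3 and maternal array 3.

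GATA2 probe sets 1 and 3, which showed little difference between rearing groups, still followed FCER1A within groups, with r = 0.68 and r = 0.79. The 3 GATA2 probe sets followed each other with r between 0.89 and 0.93. HDC, also with little difference between groups, correlated with FCER1A at r = 0.77 (rho 0.74, and 0.71 without maternal arrays 4 and 3) and with CPA3 at r = 0.83 (rho 0.84).

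MS4A2 correlated less with FCER1A, at r = 0.41 (rho 0.57). CCR3 correlated with FCER1A at r = 0.58 (rho 0.63), which fell to 0.39 without maternal arrays 4 and 3, and with CPA3 at r = 0.72 (rho 0.69). On surrogate-peer array 2, CCR3 lay 1.26 above its group mean and FCER1A 0.03 above its own. The ENPP3 probe sets correlated with FCER1A at r = 0.25 and r = -0.12. Of 41 pairs of probe sets from different members, 19 had r above 0.5 and 5 had r below 0. These pairs count GATA2 on 3 probe sets and ENPP3 on 2, so they are not separate observations. How many pairs over the whole array have r above 0.5 was not counted.

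**Figure D3:**
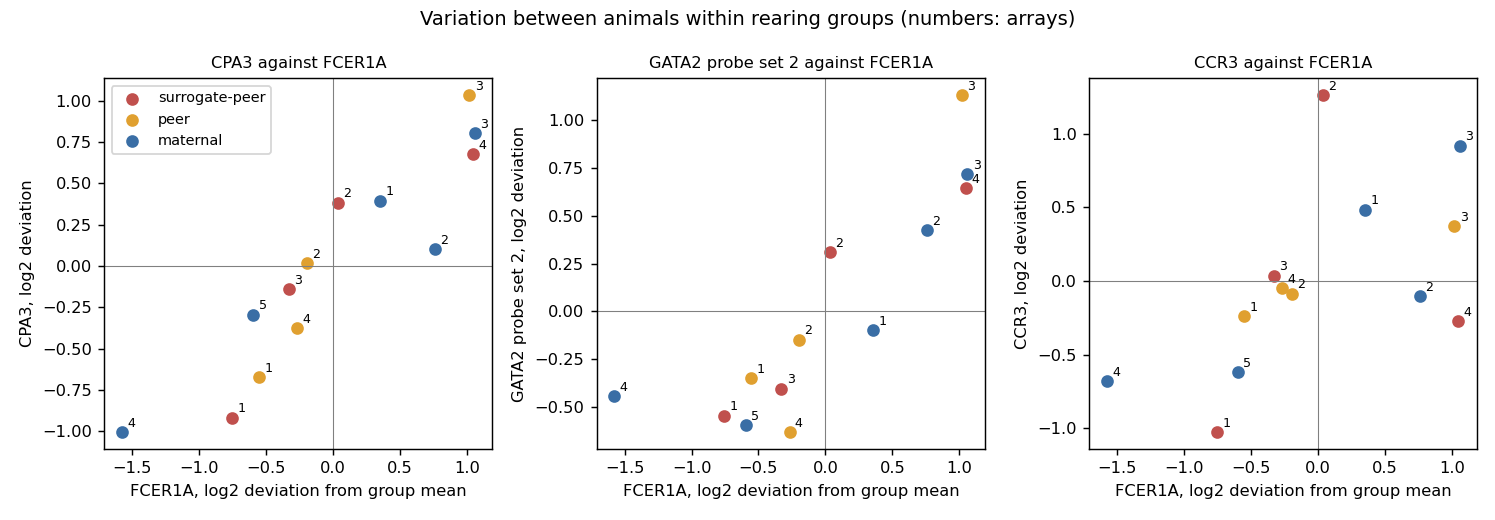
Deviation of each animal from its rearing group's mean, on the log2 scale, for FCER1A on the horizontal axis against CPA3, GATA2 probe set 2 and CCR3 on the vertical axes; points are arrays with their number, in 3 colours for the rearing groups. CPA3 (r = 0.92) and GATA2 probe set 2 (r = 0.86) follow FCER1A, and in the CCR3 panel (r = 0.58) surrogate-peer array 2 stands high with FCER1A near its group mean.

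**Figure D4:**
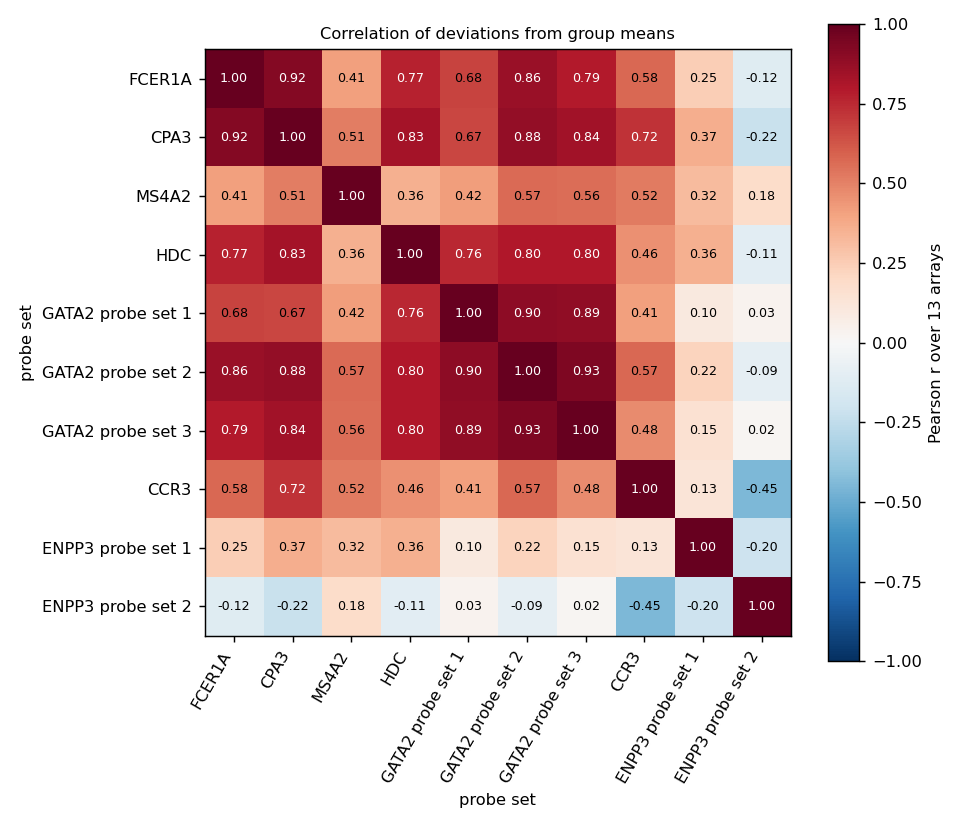
Pearson correlation of the deviations from group means over 13 arrays for each pair of member probe sets, from -1 in blue to 1 in red. FCER1A, CPA3, HDC and the 3 GATA2 probe sets share values of 0.67 and higher, and the ENPP3 probe sets stay at 0.37 or lower with every other probe set.

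A search for like genes covered 14388 tested probe sets with 1 symbol, for 8982 genes, and left out members and symbols starting with LOC. The 10 genes whose deviations were most like those of FCER1A were SAA2, FBXL14, PON3, RTTN, CSNK1E, B4GALNT1, ADAM15, DPH1, DDHD1 and TMEM199. Their r over 13 arrays ran from 0.86 for SAA2 to 0.77 for TMEM199. None of the genes searched reached the 0.92 of CPA3. Of the 10, B4GALNT1, a glycosyltransferase of ganglioside synthesis, was the only one past the threshold for non-maternal against maternal animals (0.31 ± 0.09 SE, limma adjusted p = 0.0480). The genes most like CPA3 were SAA2 (r = 0.87), ZSWIM5 (0.86), XK (0.84), RHEX (0.84) and TMEM199 (0.82). SAA2 was the most like both, with a difference between rearing groups of -0.08 ± 0.07 (SE, limma adjusted p = 0.457). These are the highest of many candidates over 13 arrays, and such a choice by itself gives high values.

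The pathway around the receptor was followed through 73 further genes in 4 lists, of which 53 were measured by a probe set with a single symbol and 44 were tested, each on its brightest probe set. For non-maternal against maternal animals 2 genes were higher (LAT and RUNX1) and 2 lower (SYK and INPP5D), 9.09% of those tested, a share near that of all tested probe sets, of which 6.64% were called higher and 1.35% lower. The median difference of the 44 was -0.13. None of the 44 passed for peer against maternal animals, for surrogate-peer against maternal animals or for surrogate-peer against peer animals. The count of 4 was 10 without maternal array 1, 2 without surrogate-peer array 2, surrogate-peer array 4 or maternal array 3, and 1 without maternal array 2. It was 0 without surrogate-peer array 1, surrogate-peer array 3, any one of the 4 peer arrays, maternal array 4 or maternal array 5, and 0 without maternal arrays 2 and 5 together. Over all tested probe sets, calls likewise rose without maternal array 1 and fell in each of the other fits named. Whether the pathway genes swung more than the whole array was not tested.

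Of 17 tested genes of IgE receptor signalling, 1 was called higher and 2 lower, with a median of -0.23 and 12 of 17 below 0. SYK, the kinase recruited to the gamma chain, measured 10.66, 11.04, 10.56 and 11.09 in surrogate-peer animals and 10.83, 11.03, 11.02 and 10.79 in peer animals, against 10.94, 11.85, 11.30, 11.92 and 12.14 in maternal animals. SYK fell, with a difference of -0.75 ± 0.18 (SE, limma adjusted p = 0.0342) and maternal array 1 inside the non-maternal range. INPP5D, the inositol phosphatase SHIP1 that dampens the receptor's signal, averaged 10.17 ± 0.07 in surrogate-peer (SD, n = 4), 10.22 ± 0.03 in peer (SD, n = 4) and 10.43 ± 0.09 in maternal animals (SD, n = 5). Its difference was -0.23 ± 0.06 (SE, limma adjusted p = 0.0355), and all 8 non-maternal values lay below all 5 maternal values. The share of all tested probe sets with this order was not counted. A further INPP5D probe set gave -0.27 with an adjusted p of 0.141 in limma.

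LAT, the membrane adaptor on which the signal is assembled in mast cells and T cells, moved the other way. It measured 10.01, 9.79, 10.33 and 9.95 in surrogate-peer animals and 10.09, 9.94, 10.17 and 9.94 in peer animals, against 9.89, 9.58, 9.45, 9.02 and 9.72 in maternal animals. Its difference was 0.50 ± 0.14 (SE, limma adjusted p = 0.0442), with only surrogate-peer array 2 below the highest maternal value. The 3 other LAT probe sets gave 0.25, 0.28 and -0.15. LYN, the kinase that starts the signal, differed by -0.62 ± 0.24 (SE) and did not pass (limma adjusted p = 0.113).

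SYK is also abundant in monocytes and B cells, and LAT in T cells, so the marker levels of these cells are given beside them. Monocyte markers (6 of 8 measured, 1 of 6 tested lower) had mean levels of 9.87 to 10.88 in non-maternal and 10.20 to 11.53 in maternal arrays. B cell markers (7 of 8 measured, 0 of 7 tested called) had mean levels of 8.15 to 9.96 in non-maternal and 9.37 to 10.34 in maternal arrays. T cell markers (3 of 8 measured, 1 of 3 tested higher) had mean levels of 9.02 to 9.63 in non-maternal and 8.28 to 9.14 in maternal arrays. Their part in the SYK and LAT results was not tested.

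Of 10 tested genes for granule contents, mediators and effector functions, 0 were called, with 5 higher, 5 lower and a median of 0.04. The 2 with the smallest p were CD200R1, an inhibitory receptor (0.76 ± 0.24 SE, limma adjusted p = 0.0652), and HNMT, which inactivates histamine (0.41 ± 0.14 SE, limma adjusted p = 0.0771). Their further probe sets lay between -0.12 and 0.06. The tryptases, the basophil marker CLC and the prostaglandin synthase HPGDS were not analysed here.

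Of 9 tested cytokine receptor genes 0 were called, with 3 higher and a median of -0.19. CSF2RB, the common beta chain that pairs with IL3RA, differed by -0.52 ± 0.24 (SE, limma adjusted p = 0.171). KIT, the stem cell factor receptor of mast cells and progenitors, differed by 0.21 ± 0.24 (SE, limma adjusted p = 0.569). IL9R (-0.23, limma adjusted p = 0.0691) and IL4R (0.26, limma adjusted p = 0.135) had the smallest p of the list.

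Of 8 tested transcription factors of the lineage 1 was called. RUNX1, a regulator of blood stem cells and basophils, averaged 9.20 ± 0.07 in surrogate-peer (SD, n = 4), 9.19 ± 0.06 in peer (SD, n = 4) and 8.73 ± 0.33 in maternal animals (SD, n = 5). Its difference was 0.47 ± 0.12 (SE, limma adjusted p = 0.0377), and all non-maternal values lay above all maternal ones, as for 1.89% of the tested probe sets. The 6 other RUNX1 probe sets gave between -0.41 and 0.02, and 0 of the 3 tested among them passed. GATA1, the factor related to GATA2, differed by -0.12 ± 0.13 (SE, limma adjusted p = 0.574).

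**Figure D5:**
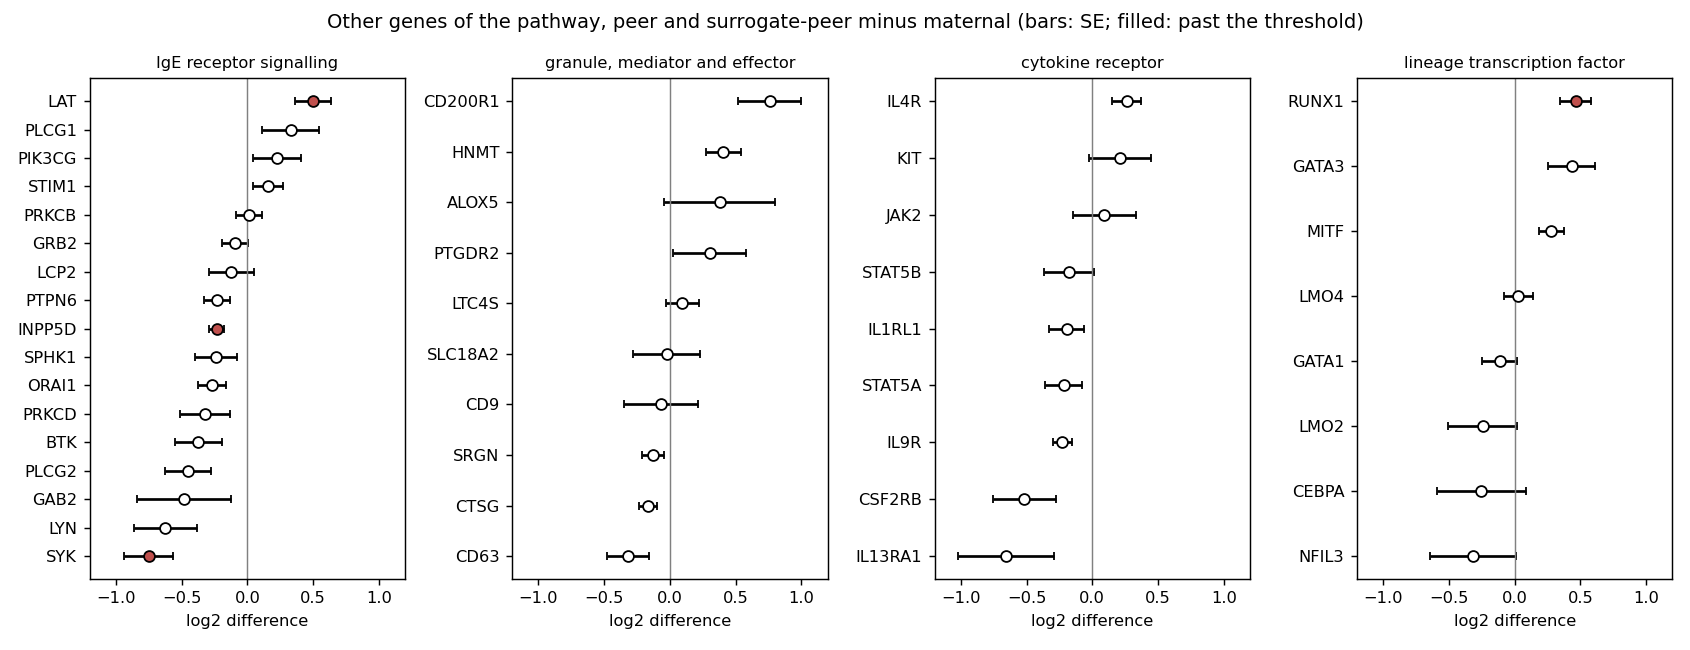
Log2 difference of the peer and surrogate-peer mean minus maternal for the 44 tested genes of the 4 pathway lists; bars are the SE, and filled points passed the threshold of 0.05 after adjustment over all tested probe sets. LAT (0.50) and RUNX1 (0.47) lie to the right, SYK (-0.75) and INPP5D (-0.23) to the left, and the other 40 points did not pass.

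Markers of the remaining cell types that share member genes gave no call. Mast cell markers (3 of 7 measured, 0 of 2 tested called) had mean levels of 6.47 to 7.002 in non-maternal and 6.56 to 7.18 in maternal arrays. Blood progenitor markers (5 of 7 measured, 0 of 4 tested called) had mean levels of 6.24 to 6.83 in non-maternal and 6.33 to 6.60 in maternal arrays. Platelet, neutrophil and plasmacytoid dendritic cell markers gave 0 calls of 7, 7 and 5 tested, and natural killer cell markers 3 lower of 6. The 3' to 5' log2 ratio of the control transcripts lay at 1.33 to 1.74 in non-maternal and 1.55 to 2.23 in maternal arrays. The SD of all values of an array was 2.13 to 2.16 in non-maternal and 2.10 to 2.12 in maternal arrays. The median of all values of an array was 5.995 to 6.043 in non-maternal and 6.048 to 6.06 in maternal arrays. The ranges of the ratio overlapped, and those of the SD and of the median did not. The part of these 3 measures in the FCER1A, CPA3, GATA2 and CCR3 differences was not tested.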

How the data were processed

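Expression was measured on 13 arrays, 1 per animal. The deposited values are log2 expression per probe set, which the authors made with RMA, per the submitters' processing notes. No version is given in the sources used here, nor whether all arrays were normalized together. No columns were left unused, and 158 of 52865 probe sets were controls and left out. The platform annotation gave 24956 of the others 1 symbol, 361 several and 27390 none; only those with 1 were named. Arrays give no read depth, and precision is limited by how many there were.

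Differences were fitted with limma 3.58.1 (lmFit and eBayes) in R 4.3.3 over all 13 arrays, with Benjamini-Hochberg adjustment over 26352 probe sets. Values of probe sets below the filter of 6.04 came from a fit without it. The non-maternal mean weights the surrogate-peer and peer groups equally. The fit was tested on simulated data. Nothing says how the animals were sampled beyond the labels, so p-values measure the spread between these samples. The members and gene lists were chosen with earlier results of these data known.

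All members were named. Of each pathway list, the text names up to 8 genes past the threshold and otherwise the 2 with the smallest p, plus the 10 genes most like FCER1A and the 5 most like CPA3. LYN, CSF2RB, KIT, GATA1 and ALOX15, and the genes most like CCR3, were named after their values were seen. Sequences were not used here. Alternatives covered the filter, scaling, array weights, the arrays fitted, the title number, the probe set for a gene and leaving out arrays.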

Additional observations from a re-analysis of the deposited data

Results flagged for a closer look

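In peer animals, peer array 3 lay far from the other 3 on 2 GATA2 probe sets. On MmugDNA.21422.1.S1_s_at it measured 9.29, against 8.37 to 8.47 in the other peer animals, a gap of 0.884 of the group's whole range. On MmugDNA.21422.1.S1_at it measured 8.20, against 7.64 to 7.66, a gap of 0.961 of the range. Both gaps were above Dixon's 95% critical value for 4 samples. Of 30 combinations of probe set and group examined, these 2 went past it, where chance gives about 1 in 20, and the 2 probe sets share a target identifier. Peer array 3 was also the highest peer array for FCER1A, CPA3, HDC and CCR3, below the critical value.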

How the results depend on the processing

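The count of member probe sets past the threshold for non-maternal against maternal animals, 2 as reported, was 1 without the brightness filter, 1 after quantile normalization, 1 with array weights, 0 with the title number as a covariate and 0 without maternal arrays 2 and 5; leaving out each array in turn gave 0 to 2. The pathway count of 4 was 2 without the filter and 0 without maternal arrays 2 and 5, and ran from 0 to 10 when each array was left out. The share of all fitted probe sets called fell without the filter, after quantile normalization, with array weights and without maternal arrays 2 and 5. It rose with the title number as a covariate and without maternal array 1, and fell without any other single array. Over the 19 alternatives FCER1A was higher by 1.52 to 2.18 and past the threshold in 10. CPA3 was higher by 1.09 to 1.54 and past the threshold in 4. Both genes were chosen with these differences known, so the alternatives describe the differences and do not test them. The cause was not tested. SYK was called in 9, INPP5D in 6, RUNX1 in 5 and LAT in 3, all with the same sign throughout. A fit of only the arrays compared is the same as the reported one for the non-maternal contrast, which uses all 13. Surrogate-peer minus peer gave 0 calls in all 20 alternatives. The title number is the unexplained number that ends each sample title. Peer arrays had 35 to 47, all above the 9 to 32 of surrogate-peer arrays, while maternal arrays had 31 to 55. Fits with this number cannot fully separate it from rearing. Their sign changes and their member count of 0 thus do not decide how firm the differences are. In such a fit surrogate-peer minus peer turned sign to -0.044 for FCER1A and -0.041 for the first ENPP3 probe set. It turned sign to -0.072 for GATA2 probe set 1 and -0.073 for probe set 3. When each array was left out it ran from -0.16 to 0.53 for FCER1A, -0.43 to 0.14 for CPA3, -0.10 to 0.26 for GATA2 probe set 1, -0.050 to 0.54 for probe set 2 and -0.019 to 0.24 for probe set 3. Calls over all tested probe sets were 83.1% higher as deposited, 56.7% after centring arrays and 66.4% after quantile normalization, while the median difference stayed within 0.06 of 0. No paired analysis was possible because the labels give no replicate numbers shared between groups. The 4 probe sets below the filter carry no detection call, and 4 or 5 animals per group limit all values.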

Other observations

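The genes that followed CCR3 between animals of a group were looked at after its values were seen. By the same measure as for FCER1A, the genes most like CCR3 were F5, coagulation factor V (r = 0.96, rho 0.87, and 0.89 without surrogate-peer array 2 and maternal array 3), NUDT3 (r = 0.91), CYTH3 (r = 0.91), XK (r = 0.91) and ALOX15 (r = 0.91, rho 0.78, and 0.75 without those arrays). NUDT3 rests on 1 probe set, since the brightest NUDT3 probe set gave r = 0.49. ALOX15 had r = 0.37 with FCER1A.

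Surrogate-peer array 2 was the highest of the 13 arrays for CCR3 (10.52) and for several genes of lipid mediator synthesis and response. The same array also had the highest mean level of neutrophil markers (10.25, beside 10.23 on maternal array 5) and of blood progenitor markers (6.83). Its mean level of B cell markers was the lowest (8.15). The part of these cells was not tested. ALOX15 measured 7.16, 9.96, 8.49 and 8.09 in surrogate-peer animals and 7.75, 7.58, 7.74 and 7.52 in peer animals, against 6.91, 6.99, 8.23, 6.80 and 6.70 in maternal animals. ALOX5, the 5-lipoxygenase that starts leukotriene synthesis, measured 9.64 on that array and no more than 8.02 on the others. PTGDR2, the prostaglandin D2 receptor of eosinophils, basophils and some T cells, measured 8.64 there and no more than 7.87 elsewhere. LTC4S, the leukotriene C4 synthase, measured 7.28 there and no more than 6.87 elsewhere. Over all 13 arrays r with CCR3 was 0.85 for PTGDR2, 0.76 for ALOX5 and 0.64 for LTC4S. Without that array and maternal array 3 it was 0.57 for PTGDR2, 0.49 for ALOX5 and 0.31 for LTC4S, so all 3 relations leaned on these arrays. IL5RA followed CCR3 at r = 0.69 over values below 5.70, whereas the eosinophil granule genes PRG3 (r = 0.14) and RNASE2 (r = -0.36) did not.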
